A study of Mus musculus with 6 samples.

Results

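The miR-130/miR-301 and miR-148/miR-152 families were followed through small RNA libraries of mouse heart cardiomyocytes, the contractile cells of the heart. Membership was decided by name: a mature miRNA belonged if its name, without the arm suffix, was miR-130a, miR-130b, miR-301a, miR-301b, miR-148a, miR-148b or miR-152. These 7 hairpins gave 14 mature miRNAs of 1974 in the deposited table, 8 in the miR-130/miR-301 family and 6 in the miR-148/miR-152 family. The 6 libraries came from C57BL/6 mice and comprised 2 adult LncSync-/- (knockout), 2 adult wild-type, 1 e13.5 knockout and 1 e13.5 wild-type library. LncSync is a long non-coding RNA, and e13.5 is a stage of embryonic development. The labels give neither how the allele was made nor the adult age, nor whether animals were pooled. They do not tie each replicate to its own animal either, so the spread between replicates behind the p-values may be technical.

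A miRNA hairpin yields a 5p and a 3p arm, and the arm loaded into an Argonaute protein guides it to messenger RNAs that pair with its seed, bases 2 to 8. miR-130a represses the cardiac transcriptional cofactor Zfpm2 in the developing mouse heart, and the miR-148/miR-152 family is known for repressing the DNA methyltransferase Dnmt1. The 3p arms are the usual guides of both families. Their mature sequences are shown because the shared seed defines each family; capitals mark the seed, and the sequences are from RefSeq on GRCm38.p6, which had an entry for 13 of the 14 arms (none for miR-301b-3p).

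miR-130a-3p: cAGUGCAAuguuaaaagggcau
miR-130b-3p: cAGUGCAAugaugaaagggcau
miR-301a-3p: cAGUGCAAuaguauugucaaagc
miR-148a-3p: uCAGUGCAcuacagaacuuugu
miR-148b-3p: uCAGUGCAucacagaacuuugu
miR-152-3p: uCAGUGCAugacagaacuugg

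The miR-130/miR-301 seed is AGUGCAA and the miR-148/miR-152 seed is CAGUGCA, so the families share the run AGUGCA, shifted by 1 base. Counted from the 5′ end, miR-130a-3p and miR-130b-3p differ by U11A and A13G, miR-148a-3p and miR-148b-3p by C9U and U10C, and miR-148b-3p and miR-152-3p by C10G and U20G over the 21 bases compared. How reads with mismatches were assigned is not given in the sources used here, so single members of such pairs carry that uncertainty. Of 5 further miRNAs in RefSeq with a seed of one of the 13 arms that have an entry, miR-130c, miR-721, miR-6341 and miR-6389 had 0 counts in all 6 libraries. The other, miR-7014-3p, shares its seed with miR-130b-5p and had 1 count, in the e13.5 wild-type library.

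On the GRCm38 build (mm10), Mir130b (chr16:17124061-17124142) and Mir301b (chr16:17124400-17124496) lay 257 bases apart on the minus strand, in an intron of the protein-coding gene 2610318N02Rik. Mir301, the source of miR-301a (chr11:87113004-87113089, plus strand), lay in an intron of Ska2, a gene of the mitotic spindle. Mir152 (chr11:96850393-96850465) and Mir148b (chr15:103285125-103285221), both on the plus strand, lay in introns of Copz2 and Copz1, which encode paralogous subunits of the COPI vesicle coat. Mir130a (chr2:84741115-84741178) and Mir148a (chr6:51269812-51269910), both on the minus strand, overlapped no other annotated gene.

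Mature counts totalled between 14347091 and 17933518 in the 4 adult libraries, 2671957 in the e13.5 knockout and 8944552 in the e13.5 wild-type library. A floor of 3 counts corresponded to 0.167 to 0.209 CPM (counts scaled by the library’s mature total) in adults, 1.12 CPM in the knockout and 0.335 CPM in the wild type at e13.5. All 5 cardiomyocyte markers (miR-1a-3p, miR-133a-3p, miR-208a-3p, miR-208b-3p and miR-499-5p) were present in every library. Together they took 26.8% to 38.6% of counts in adults, 9.85% in the e13.5 knockout and 14.6% in the e13.5 wild-type library. The 5 smooth muscle and fibroblast markers took 7.39% to 11.7% in adults, 21.4% in the e13.5 knockout and 35.5% in the e13.5 wild-type library. The 5 epithelial markers took 0.00243% to 0.00544% in adults, 0.200% in the e13.5 knockout and 0.143% in the e13.5 wild-type library. The 4 leukocyte markers took 0.0849% to 0.169% in adults, 0.0103% in the e13.5 knockout and 0.00524% in the e13.5 wild-type library. Single markers could go against the sum of their list. In the smooth muscle and fibroblast list miR-145a-5p had 4962 to 6103 CPM in adults after TMM scaling, against 345 CPM in e13.5 knockout and 906 CPM in e13.5 wild type. In the cardiomyocyte list miR-208b-3p had 1.38 to 14.8 CPM in adults on that scale, against 58.2 CPM and 279 CPM. The remaining markers are given only as part of the sums. These summed shares move with stage, and their part in the stage differences below was not tested. In bulk samples such as these, fewer cells of a type and less RNA per cell cannot be told apart.

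Of the 14 arms miR-148a-3p had the highest level in every library. Levels below are CPM after TMM scaling over all 6 libraries unless said otherwise. miR-148a-3p stood at 2452 and 8467 CPM in adult knockout and 3155 and 5766 CPM in adult wild-type libraries, against 11464 CPM in e13.5 knockout and 31025 CPM in e13.5 wild type. It ranked between 28 and 43 among mature miRNAs in adults, but 8 and 4 in the e13.5 knockout and wild-type libraries. The adult knockout replicates were further apart than the wild types and lay on either side of them. Every adult library was below both e13.5 libraries, and the log2 fold of adult over e13.5 was −2.02 (SE 0.62, edgeR quasi-likelihood adjusted p = 0.0221).

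**Figure D1:**
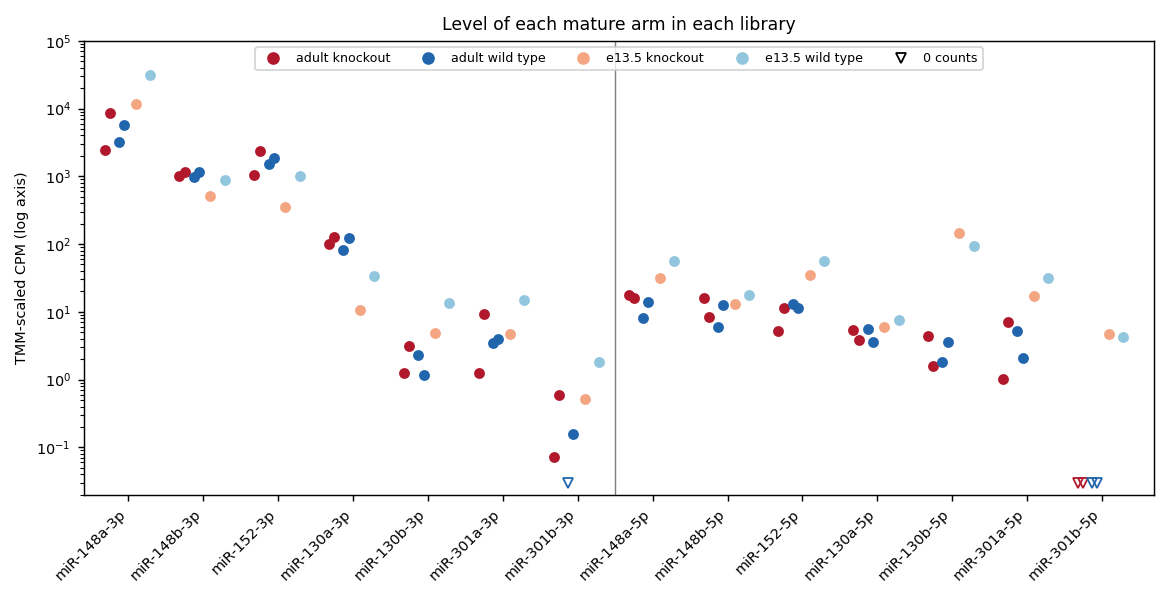
TMM-scaled CPM (log axis) of the 14 mature arms in the 6 libraries, 3p arms left of the line and 5p arms right of it; 1 point per library, and open triangles mark 0 counts. miR-148a-3p was highest in every library, and miR-301b-5p had 0 counts in all 4 adult libraries.

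The stage comparison asked how the families differ between adult and embryonic cardiomyocytes, with genotype in the model and all 6 libraries in the fit. Each genotype had 1 library at e13.5, so no e13.5 replicates enter its spread. That spread comes from the adult replicate pairs and from how far the genotype difference varies between stages. Of the 14 arms, 7 fell in adults, 1 rose and 6 did not pass an adjusted p of 0.05. Among the 7 was miR-301b-5p, which had 0 adult counts and could only be called lower. The 8 calls are 57.1% of the members, close to the 57.7% called among all 679 miRNAs tested. By direction, 50% of members were called lower, beside 29.3% of all miRNAs, and 7.14% higher, beside 28.4%. That split moved with the scaling: over all miRNAs 193 were higher and 199 lower with TMM, 133 and 241 with median-of-ratios factors, and 120 and 263 with library totals. Among the members 1 was higher and 7 lower with TMM and with median-of-ratios factors, and 0 higher and 8 lower with library totals. Over the 14 arms the median log2 fold was −1.85, against 0.06 over all miRNAs tested. The centre of all miRNAs moved to −0.72 under median-of-ratios factors and to −0.93 under library totals, so folds are also given relative to it where they depend on it. Stage and any difference in dissection, isolation or library batch cannot be told apart here.

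miR-148a-3p was the only 3p arm of its family that fell by the edgeR fit with TMM. Relative to the median of all miRNAs its log2 fold was −2.09 with TMM and −2.19 with library totals. Its call was lost without either adult wild-type library (adjusted p = 0.0615 without replicate 1 and 0.0535 without replicate 2), without the wild-type library of e13.5 (0.271, log2 fold −1.09) and among knockout libraries alone (0.184, log2 fold −1.55).

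miR-148b-3p, which differs from it at 2 bases, had 1004 and 1153 CPM in adult knockout and 965 and 1173 CPM in adult wild-type libraries, against 514 CPM in e13.5 knockout and 879 CPM in e13.5 wild type. The adult levels were even, and the log2 fold was 0.66 (SE 0.44, edgeR adjusted p = 0.218) with TMM but −0.39 with library totals. The order of the stages turned with the scaling. With TMM every adult library lay above both e13.5 libraries, as in 37.3% of all miRNAs tested. On library totals every adult library lay below both. miR-152-3p had 1040 and 2364 CPM in adult knockout and 1530 and 1878 CPM in adult wild-type libraries, against 352 CPM in e13.5 knockout and 1015 CPM in e13.5 wild type. All adult libraries lay above both e13.5 libraries on this scale and overlapped them on library totals. Its log2 fold of 1.44 (SE 0.58) had an adjusted p of 0.0581 in the edgeR fit, and it passed in 3 of 14 alternatives.

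Shares within a family do not depend on scaling between libraries. miR-148a-3p held 54.5% and 70.7% of the family's 3p counts in adult knockout and 55.8% and 65.4% in adult wild-type libraries. At e13.5 it held 93.0% (Wilson 95% interval 92.8 to 93.2) in the knockout and 94.2% (94.2 to 94.3) in the wild-type library. miR-152-3p held 19.7% to 27.1% in the adult libraries, against 2.86% in e13.5 knockout and 3.08% in e13.5 wild type. miR-148b-3p held 9.62% to 22.3% in the adult libraries, against 4.17% in e13.5 knockout and 2.67% in e13.5 wild type. Both thus had a larger share in every adult library than in either e13.5 library. The pool itself, the sum of the 3 arms, was 4497 to 11984 CPM in adults, against 12330 CPM in the knockout and 32919 CPM in the wild type at e13.5. These shares and sums are described without a test, and intervals cover counting error only.

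**Figure D2:**
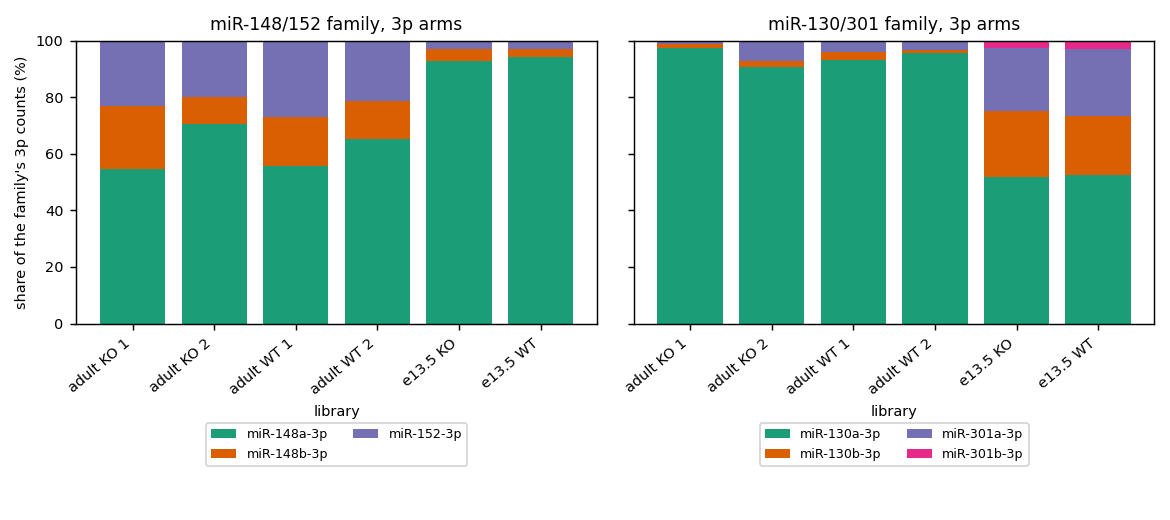
Share (%) of each family's 3p counts held by each member, 1 bar per library (KO, knockout; WT, wild type). miR-148a-3p filled 93.0% and 94.2% of its family at e13.5 and at most 70.7% in adults, whereas miR-130a-3p filled at least 90.6% of its family in adults and 51.7% and 52.4% at e13.5.

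In the miR-130/miR-301 family miR-130a-3p was the only arm of either family that rose in adults by the edgeR fit. It had 101 and 127 CPM in adult knockout and 80.8 and 121 CPM in adult wild-type libraries, against 10.7 CPM in e13.5 knockout and 33.3 CPM in e13.5 wild type. The stages did not overlap, as in 37.3% of all miRNAs with every adult library above both e13.5 libraries. Its log2 fold was 2.40 (SE 0.64, edgeR adjusted p = 0.0118), and relative to the median of all miRNAs it was 2.33 with TMM and with library totals. The call was lost with library totals (adjusted p = 0.0890), without adult wild-type replicate 2 (0.0694) and without the e13.5 knockout library (0.104, log2 fold 1.60).

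The other 3p arms of the family went the other way or did not pass. miR-130b-3p fell in adults, with 17 and 31 counts in knockout and 37 and 15 in wild type against 28 in e13.5 knockout and 149 in e13.5 wild type (log2 fold −2.15, SE 0.78, edgeR adjusted p = 0.0415). Its call was lost in 5 of 14 alternatives, among them the fit without the e13.5 wild-type library (log2 fold −1.19, adjusted p = 0.467). miR-301a-3p had 17 and 94 counts in adult knockout and 57 and 50 in adult wild type, against 27 in e13.5 knockout and 167 in e13.5 wild type. The log2 fold was −1.07 (SE 0.92) with an adjusted p of 0.336 by edgeR, and 0.16 with the e13.5 wild-type library left out. It passed in 3 of 14 alternatives, among them library totals (log2 fold −2.15, adjusted p = 0.0408). miR-301b-3p was at the limit of detection, with 9 counts over the adult libraries and 23 at e13.5 (edgeR adjusted p = 0.190).

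The makeup of the AGUGCAA pool differed between stages, in the opposite sense to that of the miR-148/miR-152 pool. miR-130a-3p held 97.6% and 90.6% of the family's 3p counts in adult knockout and 93.3% and 95.8% in adult wild-type libraries. It held 51.7% (Wilson 95% interval 42.8 to 60.4) in e13.5 knockout and 52.4% (48.7 to 56.1) in e13.5 wild type. miR-130b-3p and miR-301a-3p shared most of the remainder at e13.5, at 22.2% ± 1.58 and 23.1% ± 0.816 (SD over n = 2 libraries, 1 of each genotype). In adults miR-130b-3p and miR-301a-3p held 1.75% ± 0.815 and 3.78% ± 2.31 (SD over n = 4 libraries, 2 of each genotype). In both families a single member led at both stages, but the leading member's share was higher in adults for miR-130a and higher at e13.5 for miR-148a. The summed 3p arms stood at 86.6 to 140 CPM in adults, against 20.7 CPM in e13.5 knockout and 63.6 CPM in e13.5 wild type, below the miR-148/miR-152 pool in every library. Ligation efficiency differs between small RNA sequences and was not corrected here, so levels of different miRNAs are compared as counted.

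**Figure D3:**
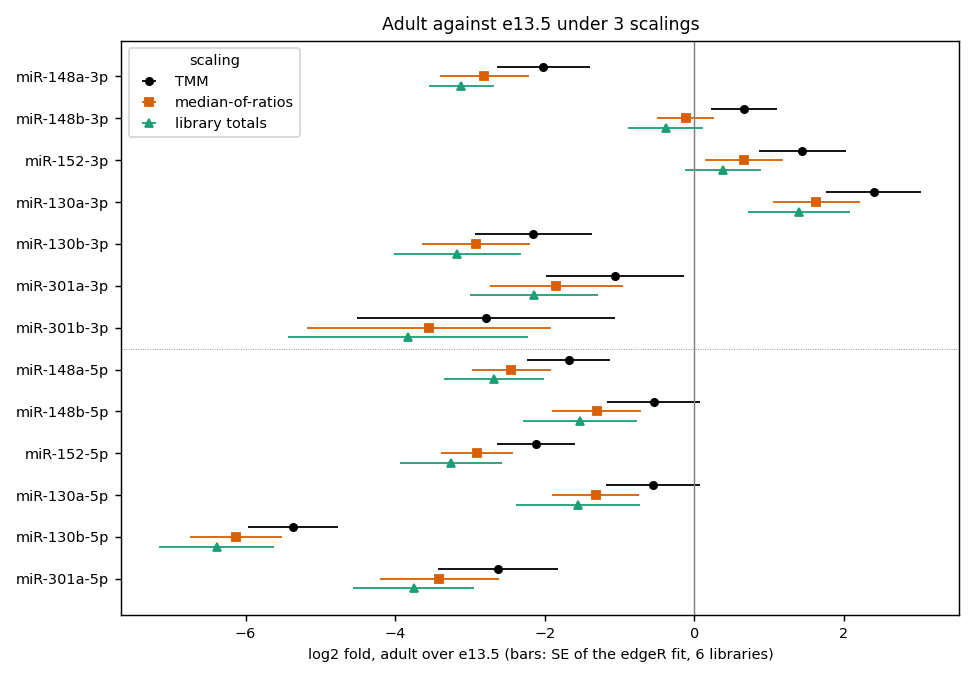
Log2 fold of adult over e13.5 for 13 arms, with the SE of the edgeR fit over 6 libraries, under 3 scalings; miR-301b-5p is left out because it had 0 adult counts. Of the arms plotted, miR-130b-5p was lowest and miR-130a-3p highest under each scaling.

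Of the 5p arms 5 of 7 passed as lower and none as higher (edgeR), and of the 3p arms 2 of 7 passed as lower and 1 as higher. No test was run of these counts against each other. Over all 679 miRNAs 29.3% passed as lower and 28.4% as higher, but these shares were not computed for all 5p and all 3p arms apart. The split by arm is thus not shown to be particular to these families. The 5p arms of the miR-130/miR-301 family are shown because miR-130b-5p and miR-301b-5p, described next, were called in every alternative; capitals again mark bases 2 to 8.

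miR-130a-5p: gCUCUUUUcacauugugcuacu
miR-130b-5p: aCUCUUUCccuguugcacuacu
miR-301a-5p: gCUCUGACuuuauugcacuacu
miR-301b-5p: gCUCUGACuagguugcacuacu

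miR-301a-5p and miR-301b-5p share the seed CUCUGAC and differ by U10A, U11G and A12G. miR-130b-5p, the partner strand of miR-130b-3p, had 4.42 and 1.60 CPM in adult knockout and 1.79 and 3.55 CPM in adult wild-type libraries, against 145 CPM in e13.5 knockout and 94.3 CPM in e13.5 wild type. Adult libraries held 16 to 61 counts of it, and the e13.5 libraries 839 (knockout) and 1047 (wild type). The log2 fold was −5.36 (SE 0.60, edgeR adjusted p = 0.00017), and the call held in all 14 alternatives, with log2 folds from −6.38 to −5.14. It was the most abundant arm of the miR-130/miR-301 family at e13.5 in both genotypes, ahead of miR-130a-3p.

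miR-301b-5p, from the hairpin 257 bases away, had 0 counts in all 4 adult libraries, and 27 in e13.5 knockout and 47 in e13.5 wild type. Against a floor of 3 counts over the adult group, it was at least 76-fold lower in adults with TMM scaling (floor 0.0570 CPM) and at least 141-fold lower on library totals (floor 0.0450 CPM). It passed the edgeR test (adjusted p = 0.0041), and its call also held in all 14 alternatives. With 0 adult counts, miR-301b-5p entered each fit through its e13.5 counts alone and could only be called lower, so the calls add nothing to the counts. Both arms of the Mir130b and Mir301b pair had negative log2 folds of adult over e13.5, and miR-301b-3p was the one that did not pass.

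The 5p arms of miR-301a, miR-152 and miR-148a also fell. miR-301a-5p had 1.01 and 7.01 CPM in adult knockout and 5.25 and 2.05 CPM in adult wild-type libraries, against 16.9 CPM in e13.5 knockout and 31.4 CPM in e13.5 wild type (log2 fold −2.62, SE 0.80, edgeR adjusted p = 0.0221). miR-152-5p had 5.29 and 11.2 CPM in adult knockout and 13.1 and 11.4 CPM in adult wild type, against 34.6 CPM in e13.5 knockout and 55.3 CPM in e13.5 wild type (log2 fold −2.12, SE 0.52, edgeR adjusted p = 0.00807). In both arms every adult library lay below both e13.5 libraries, as in 37.1% of all 679 miRNAs. miR-148a-5p fell alongside its 3p arm (log2 fold −1.68, SE 0.56, edgeR adjusted p = 0.0303), with 8.10 to 18.0 CPM in adults against 31.8 CPM in e13.5 knockout and 55.6 CPM in e13.5 wild type. The calls of miR-301a-5p, miR-152-5p and miR-148a-5p were lost when the e13.5 wild-type library was left out (adjusted p = 0.174, 0.0579 and 0.344) and among knockout libraries alone (0.128, 0.0860 and 0.352). That of miR-301a-5p was also lost without either adult wild-type library (0.0514 without replicate 1 and 0.0739 without replicate 2), and that of miR-148a-5p without adult wild-type replicate 1 (0.0520). miR-130a-5p and miR-148b-5p, with log2 folds of −0.55 and −0.54, did not pass (edgeR adjusted p = 0.467 and 0.466).

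Within a hairpin the ratio of 5p to 3p counts is free of scaling between libraries, and its mean log2 value was lower in adults for 6 of the 7 hairpins. It was also lower in adults for 59.9% of all 197 hairpins with enough counts in both arms. The median log2 difference was −0.99 over the 197 hairpins and −3.06 over the 7. Both the 6 of 7 and the median over the 7 include miR-301b. Its adult ratios rest on at most 6 counts per library and on the pseudocount of 0.5 added to each arm, so its part in them carries no weight. For miR-152 the 5p arm made up 0.506% and 0.472% of both arms' counts in adult knockout and 0.849% and 0.605% in adult wild type, against 8.94% (Wilson 95% interval 7.82 to 10.2) in e13.5 knockout and 5.17% (4.78 to 5.58) in e13.5 wild type. For miR-130a it made up 5.10% and 2.99% in adult knockout and 6.5% and 2.91% in adult wild type, against 36.1% (27.2 to 46.0) in e13.5 knockout and 18.7% (15.4 to 22.5) in e13.5 wild type. In both hairpins all adult libraries were below both e13.5 libraries, and the 3p arm led throughout.

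In miR-130b the 5p arm led at e13.5, with 96.8% (95.4 to 97.8) in knockout and 87.5% (85.5 to 89.3) in wild type. Adult libraries were split, with 78.2% and 34.0% in knockout and 43.9% and 75.0% in wild type, on 47 to 78 counts each. miR-301a ran from 34.2% to 59.9% in adults, against 78.4% (70.4 to 84.7) in e13.5 knockout and 67.6% (63.5 to 71.5) in e13.5 wild type. miR-148a was the exception, with its 5p arm at or below 0.728% in every library and the stages overlapping.

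The adult minus e13.5 difference in the log2 ratio of 5p over 3p was −3.61 for miR-152, −3.32 for miR-130b, −3.06 for miR-130a, −1.71 for miR-301a and −1.28 for miR-148b. It was −3.99 for miR-301b, whose adult counts were at most 6 per library and 0 in wild-type replicate 1, where the ratio is set by the pseudocount alone. In these 6 hairpins, or 85.7% of the 7, every adult library lay below both e13.5 libraries. For miR-301b this order was set by few reads and the pseudocount, so its place among the 6 carries no weight. Its 5p arm had 0 counts in all adult libraries, and each of its arms reached 10 counts only at e13.5. Among all 197 hairpins with enough counts in both arms, every adult library lay below both e13.5 libraries in 36.5%, and above both in 23.4%. The exact two-sided permutation test used here doubles the smaller tail, so with 4 libraries against 2 it cannot go below p = 0.133. Each of the 6 hairpins reached that value (adjusted p = 0.223 over 197 hairpins), so none passed and no hairpin in the table could. miR-148a had a difference of 0.45 and an exact permutation p of 0.80.

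**Figure D4:**
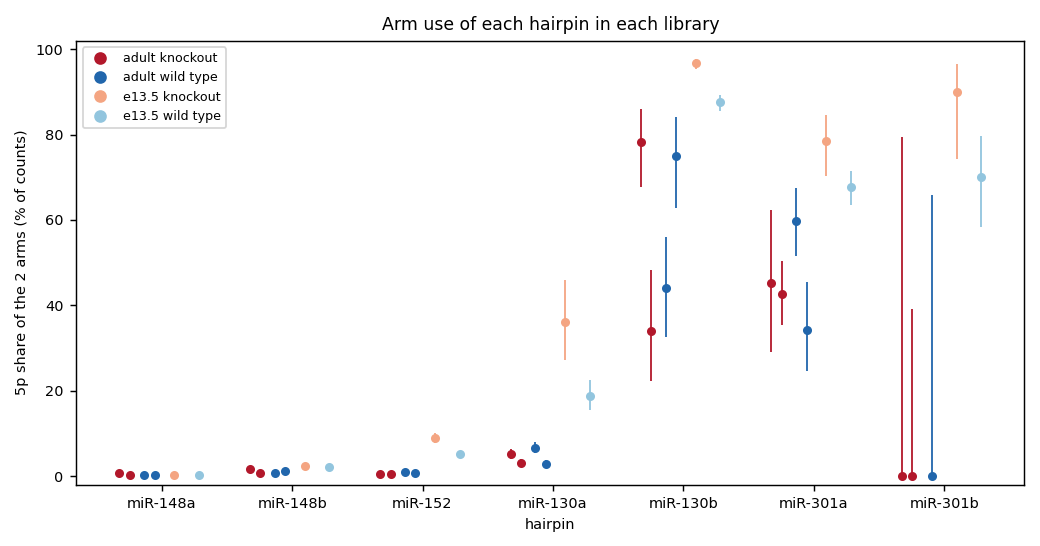
Share (%) of the 5p arm among the counts of both arms for each hairpin, 1 point per library with its Wilson 95% interval; the adult wild-type replicate 1 library had no miR-301b counts and has no point there. In every hairpin but miR-148a the 5p share at e13.5 was higher than in each adult library plotted, on at most 6 counts per adult library for miR-301b.

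The adult genotype comparison asked whether loss of LncSync moved these miRNAs. Of the 12 arms with enough counts, 0 passed the edgeR test or had an unadjusted p under 0.05, and DESeq2 and limma-voom also called 0. The share called among all 544 miRNAs was 0.735%. Log2 folds of knockout over wild type ran from −0.51 for miR-152-5p (SE 0.58) to 0.70 for miR-148a-5p (SE 0.53), and edgeR gave each arm an adjusted p of 0.999. miR-148a-3p had a log2 fold of 0.35 (SE 0.64), miR-130a-3p of 0.24 (SE 0.45) and miR-130b-5p of 0.25 (SE 0.83). Over the 12 arms the SE ran from 0.41 to 0.98 on the log2 scale, and no fold exceeded 2 SE. For miR-148a-3p the value rested on single knockout libraries: without knockout replicate 1 it was 0.98 (edgeR adjusted p = 0.0499) and without replicate 2 it was −0.85 (0.137). In these fits the spread comes from the wild-type pair alone (1 residual degree of freedom), the lone knockout library is assumed to vary like it, and 35 and 47 miRNAs of the whole table were called, against 4 with all 4 libraries.

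Over both stages, again 0 of 14 arms passed by edgeR, DESeq2 or limma-voom and 0 had an unadjusted edgeR p under 0.05, beside 0.736% called in the whole table. Their log2 folds ran from −0.61 to 0.56, a range that takes in miR-301b-3p with its 9 counts over the adult libraries. This fit uses the same libraries and the same spread as the stage comparison.

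At e13.5 each genotype had 1 library, so differences are described without a test, and a change of at least 2-fold is counted. With TMM scaling, 6 of the 14 arms lay 2-fold or more below wild type in the knockout and 0 lay 2-fold or more above it. The same shares over 565 miRNAs, those reaching 10 counts in one or the other library, were 31.3% below and 17.3% above. All 6 were 3p arms, and the median of all 565 was −0.41 with TMM and 0.36 with library totals. The 3p arms had log2 folds from −1.64 to −0.77 and the 5p arms from −0.88 to 0.62. These folds followed the scaling: with library totals 0 arms were at least 2-fold lower (13.6% of all miRNAs) and 1, miR-130b-5p, at least 2-fold higher (30.6% of all miRNAs).

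The order of the arms within a hairpin does not depend on scaling. In all 7 hairpins the 5p to 3p ratio was higher in the e13.5 knockout than in the e13.5 wild-type library, by 0.31 on the log2 scale for miR-148b up to 2.07 for miR-130b. The Wilson 95% intervals of the 5p share in these libraries overlapped for miR-148b, miR-301a and miR-301b, so counting error alone could cover their differences. They did not overlap for miR-130a, miR-130b, miR-148a and miR-152. For miR-301b the knockout library held 3 counts of the 3p arm. Over all 197 hairpins the knockout ratio was the higher in 50.8%, with a median difference of 0.02. On library totals, miR-130b-5p had 314 CPM in the knockout and 117 CPM in the wild-type library, a ratio of 2.68 (95% counting interval 2.45 to 2.94). miR-130b-3p had 10.5 CPM in the knockout and 16.7 CPM in the wild-type library, a ratio of 0.63 (0.40 to 0.95). miR-148a-3p had a ratio of 0.645 (0.639 to 0.650), and miR-148a-5p of 0.997 (0.841 to 1.18). The e13.5 knockout library was also the shallowest, and its 4 erythroid markers (miR-451a, miR-144-3p, miR-144-5p and miR-486a-5p, all detected in every library) took 1.42% of its counts against 0.0737% in e13.5 wild type; adults held 0.556% to 2.18%. The part of depth and of these cells in the arm differences was not tested.

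**Figure D5:**
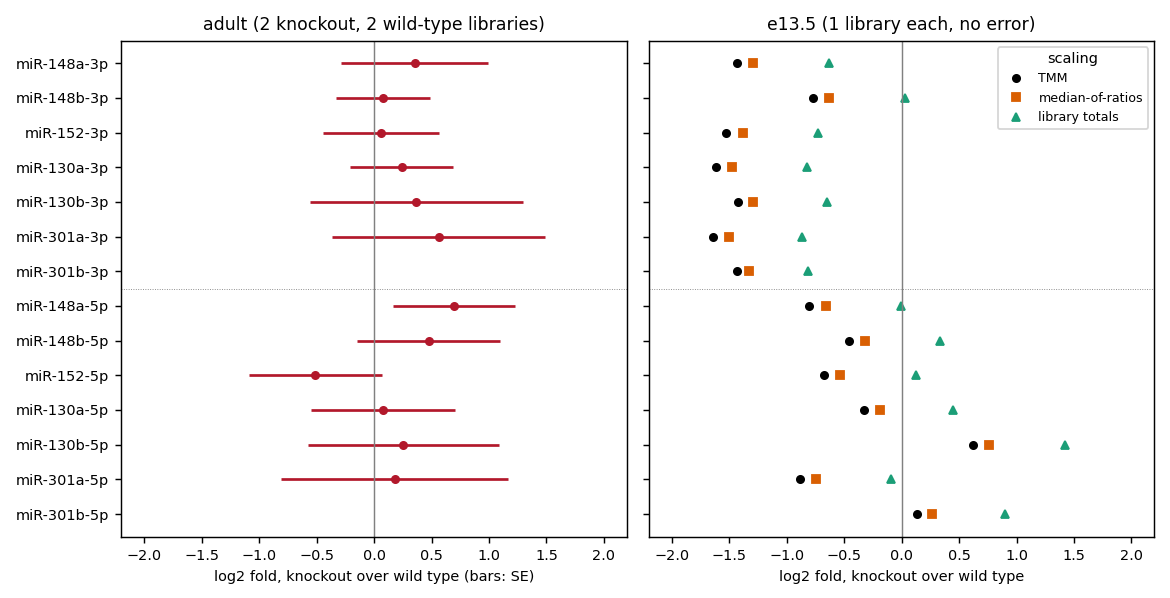
Log2 fold of knockout over wild type for each arm, in adults (left, with the SE of the edgeR fit over 4 libraries; both miR-301b arms fell under the count filter) and at e13.5 (right, 1 library each and so no error, under 3 scalings). Every adult fold lay within 2 SE of 0, and at e13.5 the 3p arms lay left of the 5p arms of the same hairpin.

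Whether the knockout difference changed with stage was tested as an interaction, in which the spread comes from the adult replicates alone. None of the 14 arms passed by edgeR, DESeq2 or limma-voom and 0 had an unadjusted edgeR p under 0.05, beside 0% called of 769 miRNAs by edgeR, with 46 at an unadjusted p under 0.05, 4 called by DESeq2 and 0 by limma-voom. Interaction estimates (adult difference minus e13.5 difference) for the 3p arms ran from 0.78 to 3.77, with edgeR adjusted p-values from 0.875 to 0.929. Their median was 1.78, against 0.27 over all miRNAs. The 3p arms include miR-301b-3p, with at most 6 counts in any adult library and 3 in e13.5 knockout against 20 in e13.5 wild type. The upper end of the range may thus rest on few reads. For the 5p arms the estimates ran from −0.46 to 1.42, with a median of 0.35. Without adult knockout replicate 1, miR-148a-3p (2.39, adjusted p = 0.000138) and miR-152-3p (2.02, adjusted p = 0.0036) passed in the edgeR fit, in which 87 miRNAs of the whole table were called. Without adult knockout replicate 2, 40 miRNAs and 0 members were called. Both fits again take their spread from the adult wild-type pair alone.

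Among miRNAs outside the families, the level of miR-148a-3p over the 6 libraries was most like those of miR-208b-3p, miR-101b-3p, miR-16-1-3p, miR-340-5p and miR-450b-5p, with Pearson r from 0.98 down to 0.96 on log2 CPM. The levels of miR-130a-3p were most like those of miR-3068-5p, miR-27b-3p, miR-135a-5p, miR-145a-5p and miR-30b-5p, with r from 0.998 down to 0.98. Each was picked from 323 miRNAs, and over 6 libraries in which stage is the main difference these values are a description. miR-208b-3p, from an intron of the fetal cardiac myosin gene Myh7, had 1.38 and 14.8 CPM in adult knockout and 4.14 and 5.75 CPM in adult wild type, against 58.2 CPM in e13.5 knockout and 279 CPM in e13.5 wild type. miR-3068-5p had 32.1 to 51.9 CPM in adults, against 3.80 CPM in e13.5 knockout and 11.7 CPM in e13.5 wild type.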

How the data were processed

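Small RNA libraries were made by the authors from DNase-treated TRIZOL total RNA with the NEXTFLEX Small RNA kit, per the labels' protocols. The authors deposited raw read counts per hairpin and per mature miRNA, 1 column per library, not pooled or normalised. The submitters' processing notes name mm10 as build. Aligner, counting tool, trimming and treatment of multi-mapping reads were not given in the sources used here. Of 3208 features, the 1974 mature ones were used. Entries holding the same reads, with counts that differed by at most 1% of the total (at least 20 counts, counts in at least 3 libraries) were merged, which removed 22, none of them a member, and left 1952. No column belonged to another sample (0 columns).

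Tests used quasi-likelihood fits of edgeR 4.0.16 under R 4.3.3 (two-sided, TMM scaling, filterByExpr with a minimum count of 10) on the whole table, with Benjamini-Hochberg adjustment over all miRNAs tested and a threshold of 0.05. The stage and genotype effects came from an additive model of all 6 libraries (3 residual degrees of freedom), the adult genotype effect from the 4 adult libraries (2), and the interaction from group means. TMM factors over all libraries ran from 0.567 (adult knockout replicate 2) to 2.17 (e13.5 knockout). At e13.5 log2 folds used a prior count of 2. Arm ratios used log2(count + 0.5) for hairpins with at least 100 counts and at least 10 of each arm in some library, and an exact permutation test (scipy 1.17.1). DESeq2 1.42.0 and limma 3.58.1 (voom), other scalings, no filter, unmerged and hairpin counts, and leaving out each library were tried. The SE of a fold is the fold divided by the square root of the edgeR F statistic. The fits were also run on simulated counts with planted changes, which varied less between libraries than these data. That run checked the direction of the folds and gives no error rate for these data. No molecular identifiers were used here to remove PCR copies, so intervals and floors cover counting error only. Named were all member arms, miRNAs with a member's seed, and for the most abundant arm of each family the 5 others, with a mean of at least 10 CPM, of highest Pearson correlation. The members and lists were chosen with earlier results of these data known. Of the other marker lists, endothelial markers (2) took 1.65% to 3.11% of counts in adults, 1.63% in e13.5 knockout and 1.90% in e13.5 wild type. The liver marker (1) took at most 0.000383% in adults, 0.0192% in e13.5 knockout and 0.00451% in e13.5 wild type, and neuronal markers (2) at most 0.0152%, 0.0304% and 0.0237%.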

Additional observations from a re-analysis of the deposited data

How the results depend on the processing

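The count of arms past the threshold between stages was 8, ran from 4 to 9 when 1 library was left out, and was 3 with the knockout libraries alone; miR-130b-5p and miR-301b-5p passed in all 14 alternatives on mature counts. The whole-table count between stages was 392, 261 to 381 with 1 library left out and 231 with knockouts alone. Among adult genotypes 4 miRNAs passed, against 9 with no filter, 0 with limma-voom and 4 with DESeq2, and 5 to 47 with 1 library left out, of which 0 or 1 was a member. Over both stages 5 passed, 3 with hairpin counts and 3 to 5 with 1 adult library left out. The interaction gave 0, 1 with library totals, 2 with no filter, 4 with DESeq2 and 0 to 87 with 1 adult library left out, of which 0 to 2 were members. At e13.5 the count of arms past 2-fold was 6, and 1 with library totals. Between stages the uncalled fold of miR-148b-3p became −0.12 with median-of-ratios factors, −0.39 with library totals and −0.12 with DESeq2, and that of miR-301a-3p ran from −2.42 to 0.16 with 1 library left out, the last without e13.5 wild type. Adult genotype folds with 1 library left out ran from −0.85 to 0.98 for miR-148a-3p (without knockout replicates 2 and 1; −0.036 without wild-type replicate 1), from −0.042 to 0.43 for miR-130a-3p and from −0.67 to 0.75 for miR-130b-5p (−0.18 without wild-type replicate 1). That of miR-148a-3p was −0.0080 with library totals. The cause was not tested.

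Same-numbered adult knockout and wild-type libraries did not deviate together (correlation of same-numbered deviations 0.0092 over 291 miRNAs). Whether they were handled as pairs cannot be told from this value. With a replicate block 5 miRNAs passed instead of 4, none of them a member (0). With 1 library per genotype at e13.5 and few counts of both miR-301b arms and of miR-130b and miR-301a in adults, small differences in these were not detectable at this depth.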
